A study of Homo sapiens with 16 samples.

Results

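The pregnancy-specific glycoproteins (PSG) were followed through all probes that the platform annotation assigns to PSG1, PSG2, PSG3, PSG4, PSG5, PSG6, PSG7, PSG8, PSG9 or PSG11: 14 of 24530 probes, for 10 genes. PSG4 and PSG6 had 3 probes each and every other gene had 1. The family was chosen by the measured rise of PSG6 and PSG9 with doxycycline (Dox) in the Ctrl line, so all values of that line's Dox contrast are given here as a description, without a test. RNA of T47D-MTVL, a derivative of the human luminal breast cancer line T47D, was hybridised to Illumina bead arrays, 16 arrays in 8 groups of 2.

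All hairpin lines carried a Dox-responsive KRAB repressor with RedFP and a Dox-inducible short hairpin RNA. The hairpin was of random sequence in Ctrl, directed at linker histone H1.4 in sh120 and directed at several H1 variants in sh225. Each was grown without Dox (Ctrl, sh120, sh225) or with 2.5 µg/ml Dox for 6 days (Ctrl_Dox, sh120_Dox, sh225_Dox). The Dox course included a passage on day 3 and a change to medium without serum on day 4. The WT and K26 groups overexpressed HA-tagged H1.4, wild type or K26A, and were grown without treatment. The hairpin lines had been sorted for RedFP and GFP after 3 days of Dox and then expanded without it, so the untreated cells had met Dox before. The labels describe the serum-free step within the Dox course and do not give it for the untreated arms, so Dox, the inducible system and serum withdrawal cannot be told apart here.

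PSG proteins are secreted members of the carcinoembryonic antigen (CEA) family within the immunoglobulin superfamily. The syncytiotrophoblast of the placenta releases them into the mother's blood in large amounts, and they are known for binding integrins and for activating latent TGF-beta. Their genes lie side by side on chromosome 19, are near copies of one another and are not typical products of breast epithelium. All 14 probes kept their gene symbol in the RefSeq gene table. On GRCh38.p14 the 10 genes span chr19:42721642-43269530, in the order PSG3, PSG8, PSG1, PSG6, PSG7, PSG11, PSG2, PSG5, PSG4 and PSG9. Since the copies are close, a probe named for 1 PSG gene may also read another, and the files give no probe sequences with which to check this.

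Across the arrays 9477 to 10286 probes were detected (detection p under 0.01), array medians of the deposited intensity ran from 78.0 to 105.4, and replicates correlated at r = 0.989 to 0.993. Of 10 luminal breast markers all passed the filter on dim probes, 7 of them detected on every array, among them KRT19 and FOXA1. Of 8 trophoblast markers 7 were detected on no array. The remaining marker, the hormone subunit CGA, was detected on the 2 WT and 2 K26 arrays and on none with Dox. The probe of the targeted gene H1-4 was detected on 0 of the 12 arrays of hairpin lines and on all 4 WT and K26 arrays, so depletion of H1.4 by sh120 could not be checked at the RNA level. Whether the 2 arrays of a group came from separate cultures is not given, so the p-values here rest on array-to-array spread, part or all of which may be technical.

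Only 3 of the 14 PSG probes were detected on any array, 1 each for PSG4, PSG6 and PSG9, and every detection was on an array with Dox. PSG9 and PSG6 were detected on 6 of 6 arrays with Dox and on 0 of 10 without. The PSG4 probe reached detection on 1 of 6 arrays with Dox and on 0 of 10 without. In these bulk samples, more cells that express a gene and more RNA per cell cannot be told apart.

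**Figure D1:**
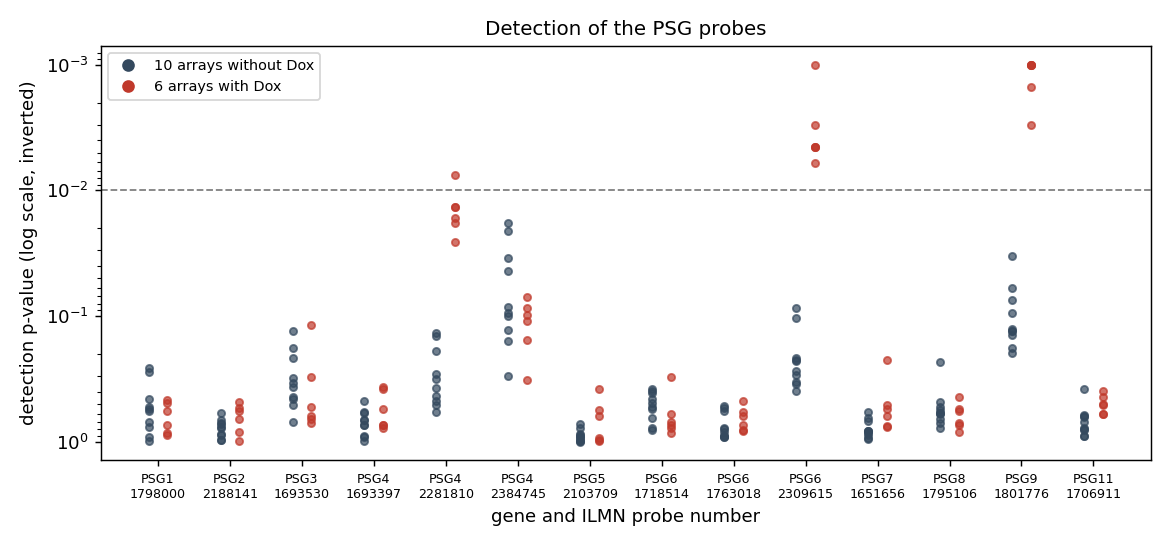
Detection p-value (log scale, inverted so that brighter probes stand higher) of each of the 14 PSG probes on the 10 arrays without Dox (dark points) and the 6 arrays with Dox (red points), with values below 0.001 drawn at 0.001. The dashed line marks 0.01. Above it lie all 6 red points of the PSG9 probe and of 1 PSG6 probe, and 1 red point of 1 PSG4 probe. No other point lies above it.

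PSG9, a secreted family member at the distal end of the cluster (chr19:43253282-43269530), was the brightest. Values below are normalized log2 intensities, on which absent signal sits a little above 4 because of an offset of 16 added after background correction. In the Ctrl line PSG9 read 4.94 and 4.83 on the arrays without Dox and 7.08 and 6.70 on those with Dox. In the sh120 line it read 5.00 and 5.16 without Dox and 6.89 and 6.67 with Dox, and in the sh225 line 4.95 and 5.09 without Dox and 7.06 and 7.03 with Dox. Both Dox arrays lay above both untreated arrays in each line. For this probe and those of PSG6 and PSG4 below, the share of all probes so separated was not counted. Such separation is therefore given as a description. WT read 4.90 and 5.01 and K26 read 5.44 and 5.14, all undetected and below every Dox array. In the deposited intensities, before any correction, PSG9 ran from 144.8 to 201.1 on the 6 Dox arrays and from 72.4 to 108.6 on the 10 others.

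Because PSG9 was undetected without Dox, its fold changes are lower bounds under the processing used here, set against the lowest detected signal of each untreated array. Here and below, adjusted p-values printed beside a bound test the fitted difference and not the bound. It was at least 1.77-fold higher with Dox in the sh120 line (limma adjusted p = 8.25e-06, n = 2 per group) and at least 2.29-fold higher in the sh225 line (limma adjusted p = 7.99e-08). In the Ctrl line, which chose it, the bound was 1.98-fold. The fitted log2 differences, which count the undetected signals as measured, were 1.70 ± 0.18 (SE) in the sh120 line and 2.03 ± 0.18 in the sh225 line, against 2.01 ± 0.18 in the Ctrl line. Their size depended on the background step: they were 0.94 and 1.16 in the sh120 and sh225 lines with no background correction, 1.09 and 1.32 with an offset of 50, and 0.57 and 0.71 in the authors' series matrix, with both calls kept. On the log2 scale the sh120 and sh225 bounds were 0.83 and 1.19, above the series matrix values. The bounds thus hold for the main processing only. Adjustment was over the 11258 probes detected on at least 2 arrays.

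PSG6, another secreted member (chr19:42902086-42917894), behaved alike on 1 of its 3 probes, ILMN_2309615. In the Ctrl line it read 4.71 and 4.72 without Dox and 6.25 and 6.77 with Dox. In the sh120 line it read 4.81 and 4.98 without Dox and 6.47 and 6.37 with Dox, and in the sh225 line 4.69 and 4.83 without Dox and 6.38 and 6.42 with Dox. Again the groups of each line did not overlap, and the 2 Ctrl_Dox arrays were further apart (SD 0.37) than those of the other Dox groups (SD 0.072 and 0.029). WT read 4.75 and 4.84 and K26 4.80 and 5.09, all undetected. Its deposited intensity was 118.5 to 158.9 on the Dox arrays and 64.2 to 93.2 on the others.

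PSG6 was at least 1.38-fold higher with Dox in the sh120 line (limma adjusted p = 6.39e-05, n = 2 per group) and at least 1.46-fold higher in the sh225 line (limma adjusted p = 2.55e-06). The bound in the Ctrl line was 1.52-fold. Fitted log2 differences were 1.52 ± 0.20, 1.64 ± 0.20 and 1.79 ± 0.20 in the sh120, sh225 and Ctrl lines. With no background correction they were 0.83 and 0.93 in the sh120 and sh225 lines, and with an offset of 50 they were 0.90 and 0.96, with both calls kept. The other two PSG6 probes, ILMN_1718514 and ILMN_1763018, were detected on no array and ranged from 4.48 to 4.73. In the sh120 line their fitted Dox differences were -0.041 and 0.045.

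PSG4, next to PSG9 in the cluster (chr19:43192702-43205638), was dimmer. Its probe ILMN_2281810 read 4.73 and 4.70 without Dox and 5.83 and 5.73 with Dox in the Ctrl line, 4.97 and 4.64 against 6.06 and 5.67 in the sh120 line, and 4.67 and 4.64 against 5.82 and 5.73 in the sh225 line. Every Dox array lay above every array without Dox, of which K26 at 4.99 was the highest, again as a description. Detection p was 0.00752 to 0.0256 on the 6 Dox arrays and 0.137 or more on the 10 others, so the probe missed the filter and no fold is given. With no filter, where all 24530 probes were tested, it passed the test in the sh120 line (limma adjusted p = 0.000495, n = 2 per group) and in the sh225 line (limma adjusted p = 3.85e-05). Means were 4.80 and 5.87 without and with Dox in the sh120 line, and 4.66 and 5.78 in the sh225 line.

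**Figure D2:**
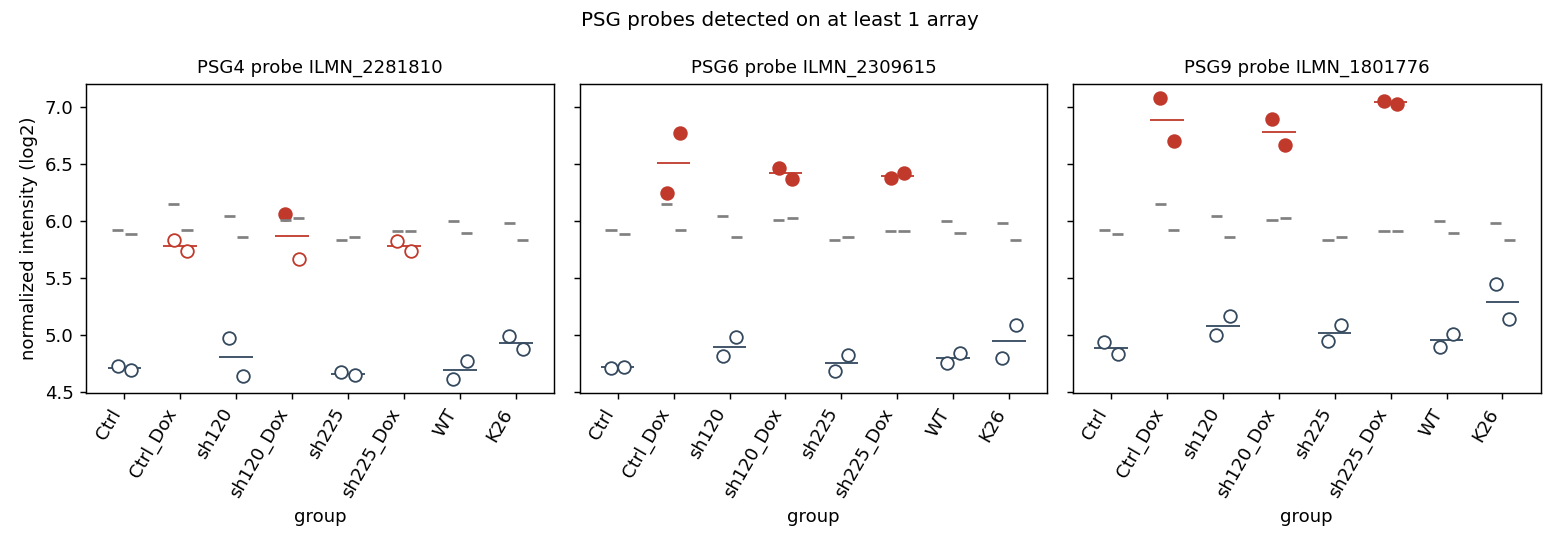
Normalized log2 intensity of the PSG4, PSG6 and PSG9 probes that were detected on at least 1 array, by group, with 1 point per array, filled where detection p was under 0.01, and a horizontal line at the group mean. Short grey bars give each array's lowest detected signal. Points with Dox (red) stand at 5.67 or higher and points without Dox (dark) at 5.44 or lower in all 3 panels.

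The remaining PSG4 probes were undetected on all arrays. ILMN_1693397 ranged from 4.45 to 4.70. ILMN_2384745 was the brightest undetected PSG probe, from 4.72 to 5.63, and reached a detection p of 0.0181 on an untreated sh225 array. It read 5.61 and 5.34 in sh225 and 5.16 and 4.72 in sh225_Dox, so it did not follow the probe of the same gene that was higher with Dox. Tested with no filter, this difference did not pass (limma adjusted p = 0.0808, n = 2 per group). In the RefSeq table PSG9 is also listed as a synonym of PSG4, and PSG11 as a synonym of PSG9. PSG1 is likewise listed as a synonym of PSG2, PSG7 and PSG8.

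The other 7 genes, PSG1, PSG2, PSG3, PSG5, PSG7, PSG8 and PSG11, were detected on none of the 16 arrays. With the 2 undetected PSG6 probes and ILMN_1693397 of PSG4, that made 10 flat probes, whose highest value was 5.07 (PSG3 on a sh225_Dox array) and whose lowest detection p was 0.117. Their largest fitted Dox difference in the sh120 or sh225 line was 0.18 on the log2 scale. None of these 10 passed the test with no filter in either line. By gene, normalized log2 intensity ranged from 4.44 to 4.80 for PSG1, which is known to bind and activate TGF-beta, from 4.41 to 4.65 for PSG2, and from 4.56 to 5.07 for PSG3. It ranged from 4.40 to 4.69 for PSG5, from 4.48 to 4.82 for PSG7, from 4.52 to 4.80 for PSG8 and from 4.49 to 4.71 for PSG11. Taken over all lines, levels with and without Dox overlapped for each of these 7 probes. Within a single line some did not overlap, in either direction. PSG11 in the sh225 line read 4.50 and 4.49 without Dox and 4.61 and 4.65 with Dox. PSG8 in the sh120 line read 4.80 and 4.62 without Dox and 4.56 and 4.61 with Dox. Separation of 2 arrays from 2 was thus also seen in undetected probes. A level below detection on these arrays does not show that a gene is silent.

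**Figure D3:**
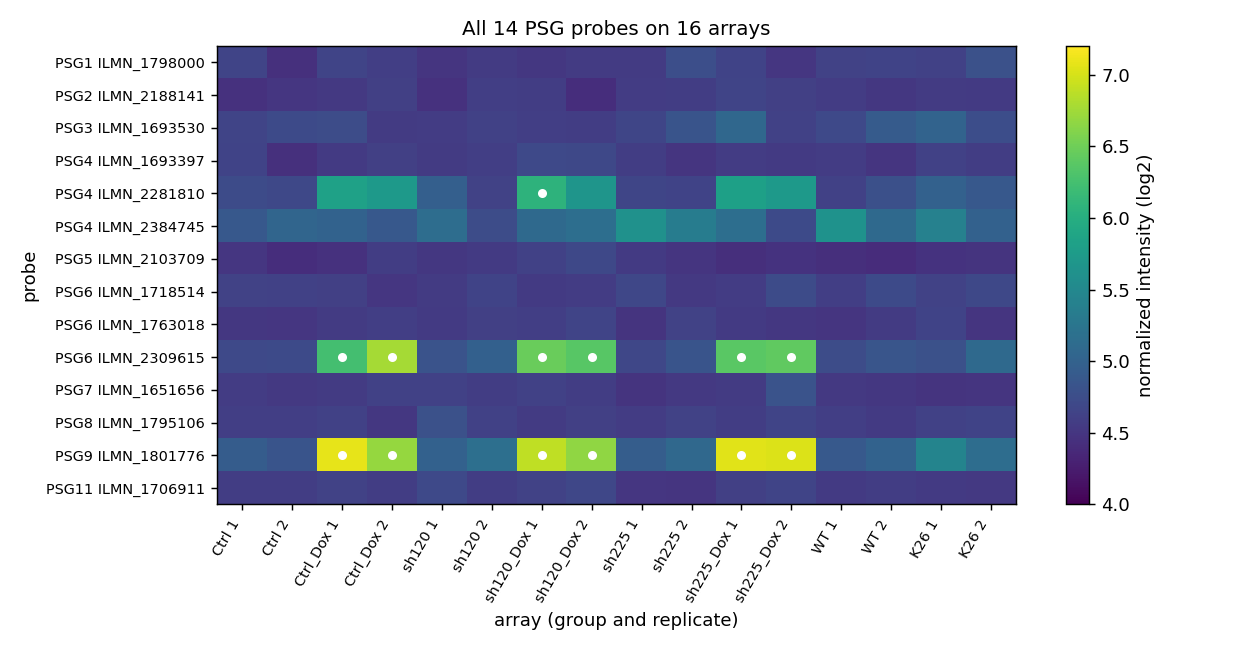
Normalized log2 intensity (colour) of the 14 PSG probes (rows) on the 16 arrays (columns, by group and replicate), with a white dot where detection p was under 0.01. The dots fall on Dox columns of PSG6, PSG9 and, once, PSG4, while the other 11 rows carry none.

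Promoter windows, from 250 bases before to 50 bases after the gene start, were present in the RefSeq promoter table for 3 of the 10 genes: PSG4, of which 1 probe of 3 was higher with Dox, and PSG3 and PSG5, whose probes were not detected. They are shown because they let the likeness of these near copies be read base by base (RefSeq, GRCh38.p14, 5′ to 3′ along the gene). Capitals mark a GC box (GGGCGG, here read as CCGCCC from the opposite strand) or a CACCC box (CCACCC).
PSG4 (chr19:43205589-43205888, minus strand): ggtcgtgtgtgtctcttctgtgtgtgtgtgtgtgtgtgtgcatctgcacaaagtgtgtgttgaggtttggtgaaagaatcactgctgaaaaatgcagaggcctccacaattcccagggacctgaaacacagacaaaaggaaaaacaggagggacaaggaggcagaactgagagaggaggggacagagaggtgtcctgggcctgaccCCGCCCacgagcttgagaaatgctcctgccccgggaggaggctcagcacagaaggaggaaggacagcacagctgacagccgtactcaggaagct
PSG3 (chr19:42740432-42740731, minus strand): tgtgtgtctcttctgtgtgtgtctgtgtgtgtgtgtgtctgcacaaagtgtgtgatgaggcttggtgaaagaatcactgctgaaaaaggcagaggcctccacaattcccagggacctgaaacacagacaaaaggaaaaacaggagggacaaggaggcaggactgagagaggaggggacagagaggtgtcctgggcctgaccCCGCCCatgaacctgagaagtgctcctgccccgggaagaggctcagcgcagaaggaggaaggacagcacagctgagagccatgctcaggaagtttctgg
PSG5 (chr19:43186487-43186786, minus strand): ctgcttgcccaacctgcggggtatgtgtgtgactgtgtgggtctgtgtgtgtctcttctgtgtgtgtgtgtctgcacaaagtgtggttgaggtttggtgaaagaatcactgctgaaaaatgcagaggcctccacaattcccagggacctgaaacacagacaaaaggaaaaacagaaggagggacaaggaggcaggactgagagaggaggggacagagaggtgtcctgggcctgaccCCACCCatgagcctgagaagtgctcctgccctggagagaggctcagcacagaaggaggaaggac
Over aligned bases PSG4 was 94.2% identical to PSG3 (278 of 295) and 94.1% to PSG5 (253 of 269), and PSG3 was 95.5% identical to PSG5 (252 of 264). The GC box, a motif bound by SP1-type factors, occurred once in PSG4 and once in PSG3, and between the same flanking bases PSG5 held a CACCC box, a motif bound by KLF-type factors. On either strand 45% of 35116 promoter windows hold the GC box and 34.3% the CACCC box. Neither AGGTCA, the nuclear receptor half-site found in 13.8% of windows, nor TATAAA, the TATA box found in 11.5%, was in any of the 3 windows.

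Of the 14 probes, 2 passed the filter, both through the Dox arrays. They met it on the 2 Ctrl_Dox arrays alone, so their testing in the other lines did not need the arrays tested. Both were called higher in the sh120 line, where 7.21% of all tested probes were called higher, and both in the sh225 line, where 16.3% were. In the Ctrl line, where the members were chosen, 2.66% of probes were called in either direction. With no filter 2.46% of probes were called higher in the sh120 line and 6.8% in the sh225 line, and 4.97% and 14.2% were called in either direction. PSG9 had the 11th and PSG6 the 14th largest rise of 11258 probes in the sh120 line, and they ranked 39 and 63 in the sh225 line.

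Of 24530 probes, 10 were detected on all 4 Dox arrays of the sh120 and sh225 lines and on none of their 4 untreated arrays, and PSG6 and PSG9 were 2 of these 10. The others were named CLK1, CD200, BRINP1, EID1, TOGARAM1, ITPRIP, SAMD9 and GAD1, none of them on chromosome 19. When the Ctrl line, WT and K26 were added, 3 probes were detected on all 6 Dox arrays and none of the 10 others: PSG9, PSG6 and BRINP1, a neural protein gene. The Ctrl arrays in this last count are those that chose PSG6 and PSG9, so their place in it is a description. These genes were named after their values were seen. On the Dox arrays the signals were modest: PSG9 lay at the 66.3rd to 70.0th percentile of all probes, PSG6 at the 62.3rd to 67.3rd and PSG4 at the 56.1st to 60.5th.

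The PSG rise did not pass the test of a difference between the multi-H1 and the H1.4 hairpin. The Dox effect in the sh225 line minus that in the sh120 line was 0.33 ± 0.26 (log2 ± SE, 95% interval -0.22 to 0.87, limma adjusted p = 0.480, n = 2 per group) for PSG9 and 0.12 ± 0.28 (-0.46 to 0.70, adjusted p = 0.840) for PSG6. Of all tested probes 13% were called in this difference. The intervals are wide beside the changes themselves, and they rest on fitted values that include undetected signals. The difference from the Ctrl line was not tested, because that line chose the genes. For PSG9 the sh225_Dox values (7.06 and 7.03) lay above the sh120_Dox values (6.89 and 6.67), while for PSG6 the sh225_Dox values (6.38 and 6.42) lay between the sh120_Dox values (6.47 and 6.37). These levels were not tested against each other and are given as a description. The groups stand in different runs of array numbers, so hairpin, line and run cannot be told apart in them. The share of all probes so separated was not counted.

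Overexpression of H1.4 was not accompanied by detectable PSG signal. Neither PSG9 nor PSG6 passed the test in K26 against WT (limma adjusted p = 0.207 and 0.645, n = 2 per group, where 21.8% of all probes were called). They did not pass in WT against untreated sh225 either (limma adjusted p = 0.826 and 0.894, 34.9% called), nor in K26 against untreated sh225 (limma adjusted p = 0.220 and 0.440, 54.3% called). The last pair of comparisons shares the untreated sh225 arrays. All groups in them were undetected, so no fold is given. The highest PSG9 value without Dox was the 5.44 of K26 replicate 1, with a detection p of 0.0331.

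The 3 probes higher with Dox varied together. Over the 16 arrays the Pearson correlation was 0.968 for PSG6 with PSG9, 0.973 for PSG4 with PSG9 and 0.958 for PSG4 with PSG6. These points share the split by Dox, and the probes may share transcripts, so the values describe the pattern only. Whether 3 genes were transcribed or fewer, read by several probes, cannot be told apart here.

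**Figure D4:**
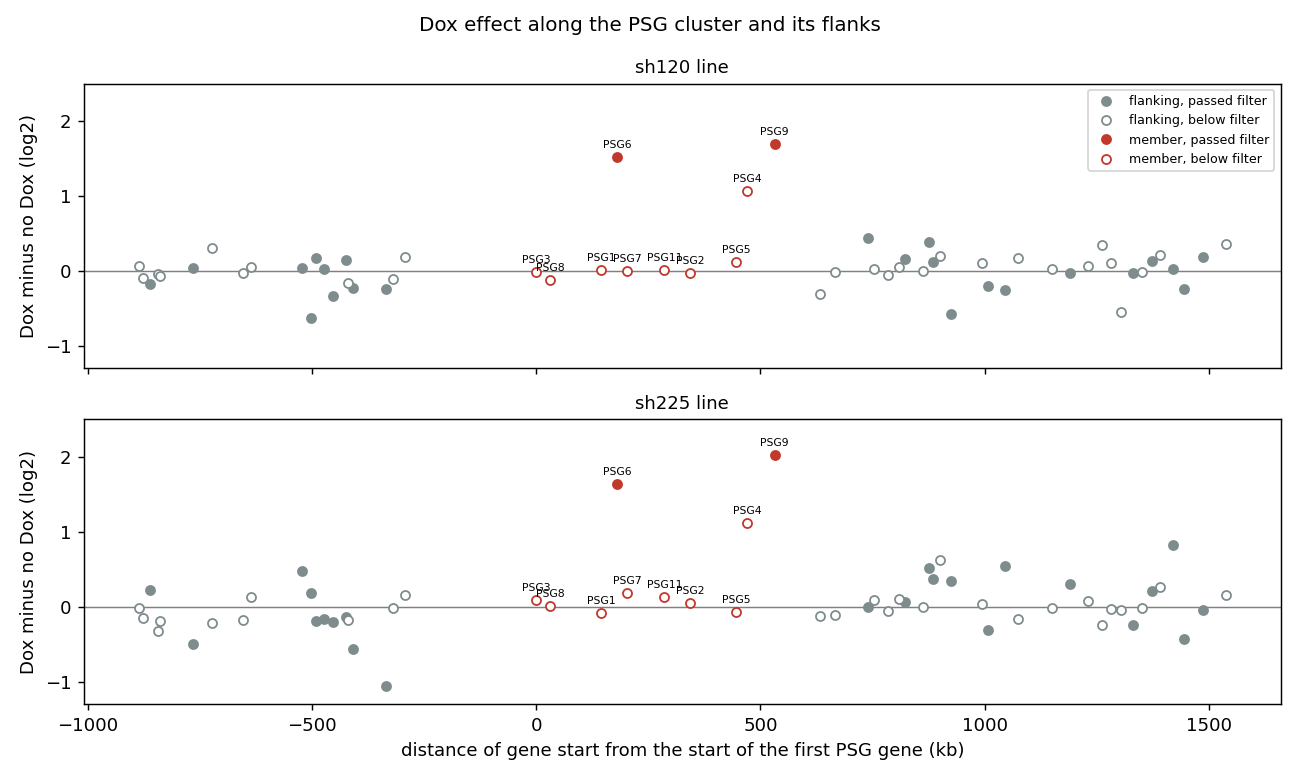
Fitted Dox difference (log2, Dox minus no Dox) in the sh120 line (upper) and the sh225 line (lower) for PSG genes (red) and other genes within 1 Mb (grey), without the CEACAM genes, by distance of the gene start from that of PSG3, with filled points for probes that passed the filter and 1 probe per gene, that of highest mean. PSG6, PSG4 and PSG9 stand above 1 in both panels, with PSG5 and PSG7 beside them near 0.

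By their annotated positions, the genes named for the 3 probes higher with Dox lie at both sides of undetected members: PSG4 and PSG9 are neighbours at the distal end, and PSG6 lies between PSG1 and PSG7. Which of these genes the probes read was not tested. The flanking genes counted here leave out the CEA family, whose genes are given in the next paragraph. Of 50 flanking genes within 1 Mb on the array 23 were tested, and 0 were called with Dox in the sh120 line, where 15.1% of all probes were called (limma, threshold adjusted p of 0.05). In the sh225 line 3 of 23 rose and 3 fell, against 34% of all probes called. Examples are ZNF234, a zinc finger gene (0.83 ± 0.18, log2 ± SE, adjusted p = 0.00122), and CNFN, cornifelin of the cornified envelope, which fell by 1.06 ± 0.13 (adjusted p = 2.89e-06). The median log2 difference of the 23 was 0.023 in the sh120 line and -0.0089 in the sh225 line, beside -0.00039 and 0.022 over all probes.

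Of 14 genes listed for the related CEA adhesion molecules, 10 were on the array, 7 of these were detected on no array and 2 were tested. CEACAM1, a cell adhesion receptor, rose with Dox in the sh225 line by 0.92 ± 0.17 (log2 ± SE, limma adjusted p = 0.000305, n = 2 per group) and CEACAM6, a membrane-anchored adhesion molecule, by 0.71 ± 0.15 (limma adjusted p = 0.00127), in a contrast where 34% of all probes were called. In the sh120 line CEACAM1 was at 0.15 ± 0.17 (limma adjusted p = 0.585) and CEACAM6 at 0.23 ± 0.15 (0.316), neither of which passed. The sh225 effect minus the sh120 effect was 0.77 ± 0.24 for CEACAM1 (limma adjusted p = 0.038) and 0.48 ± 0.22 for CEACAM6 (limma adjusted p = 0.168), so it passed for CEACAM1 only, where 13% of all probes were called. Unlike the PSG probes, CEACAM1 was detected on 15 and CEACAM6 on 16 of the 16 arrays.

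Placental genes were mostly not detected. Of 29 trophoblast hormones and secreted placental proteins on the array, 23 were detected on no array, including the placental lactogens CSH1 and CSH2 and the protease PAPPA. Of the 6 tested, 1 rose with Dox in the sh120 line and 2 fell in the sh225 line, shares close to the 15.1% and 34% of all probes called there. The riser was the chorionic gonadotropin subunit gene CGB1, undetected without Dox in that line and at least 1.39-fold higher with it. CGB1 met the filter only with the 2 sh120_Dox arrays where it was high, so this rise is a description and not a test. It is 1 of several near copies. CGB1 was also among the 2 called lower in the sh225 line (limma adjusted p = 0.0411, n = 2 per group), where it was detected on 1 untreated array. The bound for that change was 0.97-fold, so it does not show a fall beyond the detection limit. HTRA1, a secreted protease, fell in the sh225 line by 0.45 ± 0.14 (limma adjusted p = 0.0196).

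Of 39 trophoblast identity and syncytium genes on the array, 23 were detected on no array, among them GCM1, the factor of syncytium formation, and ERVW-1, the fusion protein syncytin. Of 15 tested, 6 rose with Dox in the sh120 line and 0 fell, and in the sh225 line 0 rose and 3 fell. Over all probes 7.21% rose in the sh120 line and 34% were called in either direction in the sh225 line. The largest in the sh120 line were HSD17B1, an estradiol-forming enzyme (0.98 ± 0.19, log2 ± SE, limma adjusted p = 0.00261), TEAD4, a transcription factor (0.79 ± 0.19, adjusted p = 0.0101), and PEG10, an imprinted retroelement gene (0.77 ± 0.21, adjusted p = 0.0221). ELF5, a factor of both trophoblast and mammary alveolar cells, rose by 0.52 ± 0.10 in the sh120 line (limma adjusted p = 0.00199) while with sh225 it fell by 1.17 ± 0.10 (adjusted p = 2.32e-08), so it did not keep the direction of the PSG probes. Many of these genes are also made by breast epithelium.

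Among 16 candidate binding partners of PSG proteins, 9 were tested. In the sh120 line TGFB3, a TGF-beta ligand, was the only one to rise (0.45 ± 0.12, log2 ± SE, limma adjusted p = 0.0159). In the sh225 line 2 rose, the syndecan SDC4 (0.91 ± 0.12, limma adjusted p = 9.40e-06) and the integrin ITGA5 (0.74 ± 0.18, adjusted p = 0.00322), and the tetraspanin CD9, the receptor of a mouse PSG, fell by 0.53 ± 0.16 (adjusted p = 0.0149). These 1 and 3 of 9 stand beside 15.1% and 34% of all probes called. Of 13 factors linked to PSG promoters, 10 were tested. In the sh120 line 1 rose, SMAD4, a mediator of TGF-beta signals (0.66 ± 0.16, limma adjusted p = 0.0109). In the sh225 line 4 rose and 1 fell of 10, beside 16.3% of all probes higher and 34% called in either direction, with KLF6, a GC-box-binding factor, at 1.40 ± 0.11 (limma adjusted p = 1.55e-08) and RXRA, a retinoid receptor, at -0.45 ± 0.10 (adjusted p = 0.00226).

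The probes whose group means were most like those of PSG6 over the 8 groups, among 7865 candidate probes, were RASL11B, a small GTPase (Pearson r = 0.960), an unnamed probe (0.959), EFEMP1, a matrix glycoprotein (0.945), PCDHA3 (0.930) and SNF8 (0.928). For PSG9 they were the same unnamed probe (0.945), PCDHA3 (0.942), DTNA (0.938), RASL11B (0.933) and SNF8 (0.933). These probes were picked for group means like those of PSG6 and PSG9, so their own fits on the same arrays are a description and not a test. Among them PCDHA3 was detected on 1 sh120_Dox and 1 sh225_Dox array only, and DTNA on the 2 sh225_Dox arrays only. The unnamed probe was detected on 2 Ctrl_Dox arrays, 2 sh120_Dox arrays and 1 sh225_Dox array only. The r values of PCDHA3, DTNA and the unnamed probe thus rest largely on signals below detection. The Dox difference of RASL11B was 1.04 ± 0.17 in the sh120 line (log2 ± SE), and it was at least 1.81-fold higher in the sh225 line, where it was undetected without Dox. That of EFEMP1 was 0.96 ± 0.15 in the sh120 line and 0.45 ± 0.15 in the sh225 line, and that of SNF8 was 0.55 ± 0.24 and 0.60 ± 0.24.

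The identity of the responding probe within PSG4 and PSG6 depends on the table. In the authors' series matrix, the profile of ILMN_2309615 stood under ILMN_1763018, also of PSG6 (r = 0.998 over 16 arrays), and that of ILMN_2281810 under ILMN_1693397, also of PSG4 (r = 0.997). The 3 PSG4 and 2 of the 3 PSG6 identifiers were thus exchanged within their genes, and the single probes of the other 8 genes matched their own rows. At the gene level the result was the same in both tables: with no filter, 1 PSG4, 1 PSG6 and the PSG9 probe were called higher with Dox in both lines in the series matrix as well. In that setting 5.7% of all 24530 probes were called in either direction in the sh120 line and 14.6% in the sh225 line. The sources used here do not settle which table is labelled correctly.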

How the data were processed

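The authors deposited a scanner table of intensity with a detection p-value for every probe on each array. It was neither background-subtracted nor scaled between arrays. The authors' series matrix, deposited as linear intensity, was normalized by a method not given in the sources used here, and served as an alternative. GenomeStudio 1.6.0 is listed, with no role given, per the submitters' processing notes. Intensities were corrected by normexp with controls inferred from the detection p-values (offset 16), quantile-normalized and log2-transformed with neqc (limma 3.58.1 in R 4.3.3). A probe was kept if its detection p was under 0.01 on 2 or more of the 16 arrays (11258 probes), each tested separately so that all PSG probes could be followed. A single limma fit of group means (lmFit, contrasts.fit, eBayes with a trend) used all arrays, with Benjamini-Hochberg adjustment over the kept probes and a threshold of 0.05. Its test was checked on simulated data. For a group undetected on all arrays, a lower bound replaced the probe's signal on an array by that array's dimmest detected signal, unless the probe itself was brighter.

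Members, lists and tests were chosen with earlier results of these data known. All 14 probes are accounted for. In the other lists a gene is represented by its probe of highest mean, and named genes are at most the 3 called ones of largest change per list and contrast, to which ELF5 in the sh120 line was added after its values were seen. Like profiles were ranked by Pearson r over the 8 group means among kept probes with an SD of at least 0.2, 5 per probe. Promoter windows were aligned end to end with free end gaps (Biopython 1.88). The array numbers in the labels run from 1 to 8 for Ctrl and sh120 and again for sh225, WT and K26. Each main test stays within 1 run, except the difference of Dox effects. In that difference a run shift cancels if it is the same with and without Dox on the log2 scale. A run effect on the size of a Dox difference would not cancel and was not tested. Alternatives covered background, scaling, filter, probe choice, table, spread model, replicate block, arrays in the fit and leaving out single arrays.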

Additional observations from a re-analysis of the deposited data

Results flagged for a closer look

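The Dox effect of 9 of the 17 list genes named above differed between the sh225 and sh120 lines in the limma test of the difference, in which 13% of all probes and neither PSG6 nor PSG9 were called. The named genes were picked for a call in 1 of the lines, so their share is no result about the lists. Given as the sh225 effect minus the sh120 effect on the log2 scale, KLF6 differed by 1.22 ± 0.16 (SE, limma adjusted p = 2.29e-05), SDC4 by 1.20 ± 0.17 (adjusted p = 5.89e-05), ZNF234 by 0.80 ± 0.25 (adjusted p = 0.0384) and CEACAM1 by 0.77 ± 0.24 (adjusted p = 0.038). ELF5 stood at -1.69 ± 0.14 (limma adjusted p = 4.93e-08), CNFN at -0.82 ± 0.18 (adjusted p = 0.00415), HTRA1 at -0.75 ± 0.20 (adjusted p = 0.0167) and TGFB3 at -0.51 ± 0.17 (adjusted p = 0.0486). CGB1, also among the 9, stood at -1.35 ± 0.29. It met the filter only with the sh120_Dox arrays used in this difference, so its call is a description and not a test. CGB1 was undetected on 5 of these 8 arrays, so its value counts signals below detection.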

How the results depend on the processing

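With Dox in the sh120 and sh225 lines, PSG9 kept its direction and its call under all 16 alternatives per line, and PSG6 under 14 of 16. Alternatives that changed only the filter, probe choice, spread model, replicate block or the arrays of other lines left the estimates as they were. Under those, only the call could change. Without the series matrix, adjusted p reached at most 0.000473 and 7.72e-06 for PSG9, and 0.00238 and 0.000134 for PSG6. The count of called PSG probes fell from 2 to 1 in both lines with the authors' series matrix, where PSG6 ILMN_2309615 read 0.024 in the sh120 line, -0.0088 in the sh225 line and -0.033 in the difference between them, with or without a filter. That table holds its profile under ILMN_1763018. Without the series matrix, the log2 difference of PSG9 ran from 0.94 to 1.81 (sh120) and from 1.16 to 2.10 (sh225) and that of PSG6 from 0.83 to 1.60 and from 0.93 to 1.71, lowest with no background correction. Leaving out single arrays gave 1.59 to 1.81 (sh120) and 1.96 to 2.10 (sh225) for PSG9, and 1.44 to 1.60 and 1.57 to 1.71 for PSG6.

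Of the 6 differences of PSG6 and PSG9 among WT, K26 and untreated sh225, none called under any alternative, 3 changed sign. PSG6 in WT against untreated sh225 was 0.040, and -0.044 with 75th percentile scaling, -0.017 in the series matrix, -0.030 against the mean of untreated sh120 and sh225, and -0.030 to 0.11 without single arrays. PSG9 there ran from -0.13 to 0.0086 without single arrays, and PSG6 in K26 against WT from -0.0013 to 0.29. The causes were not tested. With the replicate number as a block, 2 PSG probes were called in both lines and 0 elsewhere, so the replicate block changed no call. The numbers do not pair the arrays: replicate differences of 2 groups correlated at -0.343 to 0.310 over 28 pairs. No PSG probe was left with probes detected on all 16 arrays, so that filter gave no value. Chosen after seeing the data, a filter at a detection p under 0.05 called 3 of 4 tested PSG probes in both lines. The series matrix with no filter, chosen likewise, called 3 of 14. With the filter at 0.05, 11.3% and 27.4% of all probes were called in the sh120 and sh225 lines, and with the unfiltered series matrix 5.7% and 14.6%. At that filter PSG4 ILMN_2281810 had limma adjusted p = 0.000825 and 7.61e-05. The uncalled probe, PSG4 ILMN_2384745, met it through arrays without Dox and stood at 0.18 in the sh120 line and -0.54 in the sh225 line (log2, limma adjusted p = 0.657 and 0.0718). Signals near background limit all PSG values.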
